A study of Homo sapiens with 3 samples.

Results

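Axon guidance ligands and receptors were measured in 3 populations of the human melanoma line 1205Lu by 1-colour expression microarray, with 1 array per population. 1205Lu is an established line grown from a lung metastasis that WM793 melanoma cells formed in a mouse. The original monolayer (OM) had grown for 14 days in RPMI-1640 with 10% FCS. Melanoma bodies (MB), which are attached 3D spheroids, had grown for 14 days in hESC medium, that is, DMEM F-12 with 20% Knock Out serum replacement. They were collected by physical detachment. The new monolayer (NM) grew out of such bodies during 10 days in RPMI-1640 with 10% FCS, after the 14 days in hESC medium, and leftover bodies were taken away before RNA was prepared. Members were chosen by gene name on the array and include Eph receptors and ephrins, semaphorins with their plexin and neuropilin receptors, SLITs and ROBOs, netrins and UNC5 receptors. The rule took 64 genes, read by 104 probes, of 30982 genes and 41000 probes. The Eph receptor EPHA2 is not among these members and was not examined.

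These families steer growing axons, and they also act on cell migration, cell sorting and vessel growth. Ephrins are held on the cell surface and bind Eph receptor tyrosine kinases on a neighbouring cell, so that signals can pass into both cells. Semaphorins, secreted or membrane-bound, bind plexins, and most class 3 semaphorins need a neuropilin as well. SLITs are secreted ligands of ROBO receptors, and netrins bind UNC5 receptors, which mediate repulsion, or DCC, which mediates attraction. Melanocytes come from the neural crest, whose migrating cells use several of these cues.

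Of the Eph receptors in the rule, EPHA4, EPHB1 and EPHB3 were 5-fold or more apart between populations, all brightest in MB. The 250 bases before their RefSeq starts (GRCh38.p14) are given here so that the regions can be compared. Capitals mark E-boxes (CANNTG) and the core ACAAT of sites bound by SOX proteins, each searched on both strands, where the patterns can share letters.
EPHA4, chr2:221574203-221574452, minus strand: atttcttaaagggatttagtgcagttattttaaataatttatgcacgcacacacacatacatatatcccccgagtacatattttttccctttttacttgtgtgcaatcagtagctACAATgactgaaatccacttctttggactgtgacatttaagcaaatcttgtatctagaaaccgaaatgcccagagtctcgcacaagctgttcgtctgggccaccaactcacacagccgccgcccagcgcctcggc
EPHB1, chr3:134795010-134795259, plus strand: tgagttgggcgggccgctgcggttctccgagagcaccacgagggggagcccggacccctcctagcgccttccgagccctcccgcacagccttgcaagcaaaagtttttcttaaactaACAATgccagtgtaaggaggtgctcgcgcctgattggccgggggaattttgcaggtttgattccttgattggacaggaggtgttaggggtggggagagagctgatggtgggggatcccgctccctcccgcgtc
EPHB3, chr3:184561535-184561784, plus strand: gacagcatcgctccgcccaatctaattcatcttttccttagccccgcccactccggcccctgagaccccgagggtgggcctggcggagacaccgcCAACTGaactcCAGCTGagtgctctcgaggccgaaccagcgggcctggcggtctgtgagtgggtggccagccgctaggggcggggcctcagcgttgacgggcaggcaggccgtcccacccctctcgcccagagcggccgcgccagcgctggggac

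The 3 windows differed in base composition, with a GC content of 43.2% for EPHA4, 60.8% for EPHB1 and 70.0% for EPHB3. The EPHA4 and EPHB1 windows each held 1 SOX core and no E-box, and the EPHB3 window held 2 E-boxes and no SOX core. Over all 35114 windows of this length in the table, 61.8% held an E-box, 24.6% a SOX core and 42.6% a GC box (GGGCGG), a sequence bound by SP1. Over the 87 windows of the 55 members found in the table, 52.9% held an E-box, 18.4% a SOX core and 71.3% a GC box. The median GC content was 65.6% in the members' windows and 58.0% in all windows, so the members' windows were richer in G and C. A match is a run of letters and not evidence of binding.

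Each value came from 60-base oligos on the array. The oligos for EPHB4 and PLXNB3 are shown because each was the only probe of a gene that was over 2-fold brighter in MB than in both monolayers, and because their hg17 coordinates cover more bases than the oligo holds, so that they span an intron and read spliced RNA.
EPHB4 oligo, chr7:100045817-100047451, minus strand: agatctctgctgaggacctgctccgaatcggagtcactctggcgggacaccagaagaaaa
PLXNB3 oligo, chrX:152564571-152564700, plus strand: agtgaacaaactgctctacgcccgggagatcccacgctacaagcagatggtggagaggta

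Signals are background-subtracted intensities in arbitrary units (a.u.), scaled so that GAPDH, ACTB and HSP90AA1 had the same mean as in OM, with divisors of 0.978 for MB and 0.877 for NM. No fold sets a signal of one probe against that of another, since oligos differ in how well they hybridise. The sums over marker lists below add signals of different probes and mostly follow the brightest. With 1 array per population, no fold has a replicate error and no test was run. Probes printed in 10 spots gave the error of a single spot, an SD of 0.041 to 0.046 on the log2 scale where both arrays were above 100 a.u., and of 0.16 to 0.27 where the dimmer array lay between its floor and 100 a.u.; it holds no variation between cultures. All arrays lay on 1 slide. Medium, growth form and culture cannot be told apart in any comparison. In comparisons with MB, the collection of bodies by detachment cannot be told apart from these either. In RNA pooled over the cells of a population, fewer cells of a type and less RNA per cell cannot be told apart. Of 10 melanocyte lineage genes, 8 were well above background on at least 1 array, SOX10 reading 6254 a.u. in OM, 9598 a.u. in MB and 5571 a.u. in NM, while the pigment enzymes TYR and TYRP1 were on no array well above background. SILV, MCAM and DCT were lower in MB than in OM, by 1.34-fold, 1.25-fold and 1.04-fold. No lineage gene was counted as 2-fold apart between MB and OM. Summed over the 10 genes the signal was 59627 a.u. in OM, 97207 a.u. in MB and 41993 a.u. in NM. The brightest of them were S100B (25155, 44767 and 15170 a.u.) and CSPG4 (18726, 34853 and 14062 a.u.), each over 2-fold higher in MB than in NM. Of 8 neuronal genes on the array, 7 were well above background on at least 1 array, with sums of 71764, 66750 and 59168 a.u. in the same order, nearly all of it TUBB3 (70092, 65601 and 57928 a.u.). The others went different ways: NEFL was 4.17-fold lower in MB than in OM, SNAP25 2.81-fold higher in MB than in OM, and SYP 7.43-fold higher in NM than in OM. KRT5 and KRT1 of keratinocytes, CDH5 and TIE1 of endothelium and PTPRC of leukocytes were likewise on no array well above background. Other genes of those lists were measured, since 3 of 5 keratinocyte genes (sums of 39424, 40683 and 37374 a.u.), 3 of 5 endothelial genes (233, 517 and 163 a.u.) and 4 of 5 leukocyte genes (4924, 1988 and 5856 a.u.) were well above background on at least 1 array. Nearly all of the keratinocyte sum was KRT10, at 39103 a.u. in OM, 40289 a.u. in MB and 37219 a.u. in NM. VWF was 2.15-fold higher in MB than in OM and 3.66-fold higher than in NM, PECAM1 was well above background in MB only, at 89.7 a.u., and KRT14 was 2.85-fold higher in MB than in NM. CD68 was lower in MB, at 4716 a.u. in OM, 1766 a.u. in MB and 5637 a.u. in NM. Whether these markers have a part in the results below was not tested.

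Most axon guidance genes were measurable in this line. On all 3 arrays 46 of the 64 members were well above background, on some arrays 6, and on none 12. The share well above background was 76.6% in OM, 79.7% in MB and 73.4% in NM, against 68.8%, 69.7% and 63.5% of all genes on the array. The 12 members without a measured level were EPHA1, EPHA3, EPHA5, EPHA6, EPHA7, EPHA8, EPHA10, EFNA2, SEMA3D, SEMA3E, SEMA5B and UNC5D, so that EPHA4 was the only one of the 8 EphA receptors in the rule with a measured level.

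A gene was counted as 2-fold apart where the ratio of its scaled signals reached 2 and the brighter array was well above background and above 100 a.u. before scaling. Where the dimmer array did not rise well above background, its signal or the array's floor, whichever was higher, took its place, which gives a lower bound. In MB against OM, 42 members had a brighter array above this minimum, and 9 of them were at least 2-fold higher in MB, where 6.76% of all 17814 such genes were. These were EPHB3, EPHB4, PLXNA2, PLXNB3, SEMA3B, SEMA3C, SEMA5A, SEMA6A and SEMA6D, which make up 21.4% of the 42. With 75th percentile, quantile or spike-in scaling the 9 became 5, without EPHB4, PLXNA2, SEMA3C and SEMA6D. NRP1 and NTN4 were at least 2-fold lower in MB, 2 of 42 members against 4.23% of all genes. No member was 5-fold apart, against 1.72% of all genes in either direction. The members' median log2 ratio (MB over OM) was 0.32, and that of all genes 0.09.

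In MB against NM, 12 of 43 members were at least 2-fold higher in MB, or 27.9%, where 13.7% of all 17753 genes were. They were EFNA4, EPHA4, EPHB1, EPHB3, EPHB4, PLXNA2, PLXNB3, PLXND1, SEMA3B, SEMA4D, SEMA5A and SEMA6A. The 6 members lower in MB, EFNA1, NRP1, NTN4, ROBO3, SEMA4A and UNC5B, made 14.0% of the 43, where 10.4% of all genes were lower. EPHA4, EPHB1, EPHB3 and UNC5B were 5-fold or more apart, 4 of 43 members against 3.94% of all genes. The median log2 ratio of MB over NM was -0.06 over the members and 0.04 over all genes.

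In NM against OM, the pair of monolayers, 4 of 43 members were at least 2-fold higher in NM, where 4.37% of all 17525 genes were: EFNB1, ROBO2, SEMA6D and UNC5B. With no scaling the 4 became 2. EPHA4, EPHB1, EPHB2, EPHB3 and PLXNA2 were at least 2-fold lower in NM, 5 of 43 members against 5.99% of all genes, and the 5 became 2 with normexp background correction or no background subtraction. UNC5B alone was 5-fold apart, 1 of 43 members against 1.32% of all genes. The median log2 ratio of NM over OM was 0.27 over the members and 0.08 over all genes. The comparisons share arrays, so their lists are not independent of each other.

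**Figure D1:**
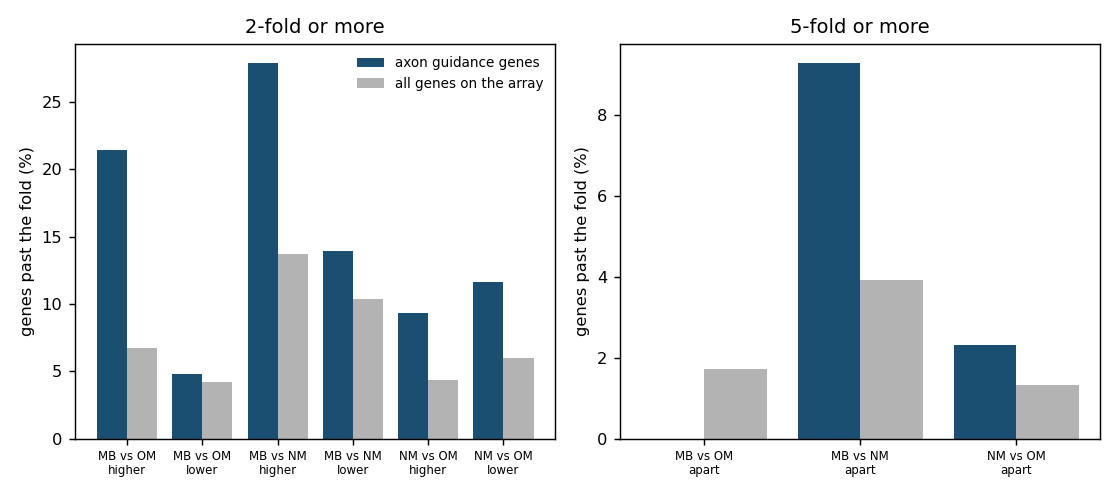
Share of axon guidance genes (dark bars) and of all genes on the array (grey bars) that were at least 2-fold higher or lower (left) or 5-fold apart (right) in each comparison, in percent of genes whose brighter array was above 100 a.u. The members' bars rest on 42 or 43 genes, so 1 gene moves a bar by over 2 percentage points; the widest gap at 2-fold is for genes higher in MB than in OM, at 21.4% against 6.76%.

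Of the 64 members, 23 were 2-fold apart in at least 1 comparison. MB was the brightest array for 13 of them, NM for 9 and OM for 1, which was EPHB2. Among the 5090 genes of the whole array with the same property, MB was the brightest for 48.1%, NM for 37.2% and OM for 14.7%. The order most often seen among the members had MB brightest and NM dimmest, in 10 of 23, or 43.5%, where 38.4% of the 5090 genes had it. These 10 were EFNA4, EPHA4, EPHB1, EPHB3, EPHB4, PLXNA2, PLXNB3, PLXND1, SEMA4D and SEMA6A. The reverse order, NM brightest and MB dimmest, was that of EFNA1, NRP1, NTN4, ROBO3 and SEMA4A, 21.7% of the members against 31.2% of those genes. These orders are those of the scaled signals. NM and OM were nearly level for NTN4, at 1.01-fold, and for EPHB4, at 1.03-fold. Before scaling NTN4 was brighter in OM, at 3112 a.u. against 2749 a.u. in NM.

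**Figure D2:**
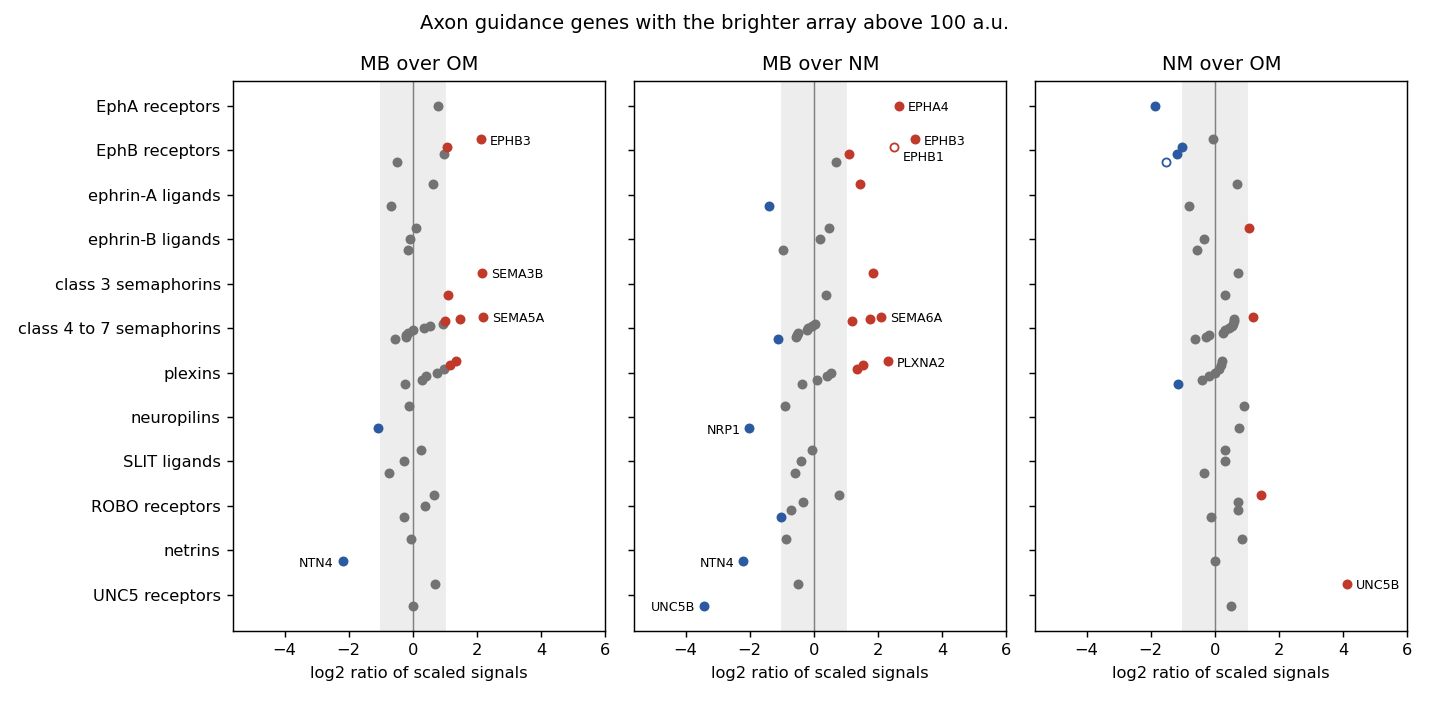
Log2 ratio of scaled signals of each member whose brighter array was above 100 a.u., by family (vertical axis), for MB over OM, MB over NM and NM over OM. The grey band spans less than 2-fold, red and blue points are 2-fold or more higher and lower, open points are lower bounds, and members 4-fold apart or more are named; UNC5B stands farthest out, 17.2-fold higher in NM than in OM.

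Eph receptors held 3 of the 4 members 5-fold apart. EPHB3, a receptor of ephrin-B ligands that keeps cell populations apart at tissue boundaries, read 875 a.u. in OM, 3817 a.u. in MB and 433 a.u. in NM (1 probe, hg17 chr3:185782527-185782586). MB stood above both monolayers, by 4.36-fold over OM and 8.81-fold over NM. EPHA4, which binds ephrins of both the A and B classes, read 1004 a.u. in OM, 1717 a.u. in MB and 274 a.u. in NM (hg17 chr2:222116222-222116281). Its signal was 6.26-fold higher in MB than in NM and 3.66-fold lower in NM than in OM, so NM lay below both other populations. Its other probes gave the same order, at 308, 644 and 93.3 a.u. and at 285, 626 and 79.0 a.u. in OM, MB and NM, and put MB 2.09-fold and 2.19-fold above OM, where the probe used gave 1.71-fold.

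EPHB1, also a receptor of B-class ephrins, was dim, at 113 a.u. in OM and 222 a.u. in MB, and was not well above background in NM at 39.6 a.u. MB was therefore at least 5.62-fold above NM, and OM at least 2.85-fold, while the difference of 1.97-fold between MB and OM stayed under 2. With normexp background correction, which lifts dim signals, MB against NM came to 2.47-fold and OM against NM to 1.59-fold, under the threshold. EPHB4, known for its part in vein formation, read 923 a.u. in OM, 1913 a.u. in MB and 892 a.u. in NM. The MB signal exceeded OM by 2.07-fold and NM by 2.14-fold, and the monolayers lay close together. At the lowest among the alternatives these ratios were 1.71-fold and 1.94-fold, under the threshold. EPHB2, which repels axons and sorts cells in the gut crypt, went another way, with 944 a.u. in OM, 670 a.u. in MB and 413 a.u. in NM. It was 2.29-fold lower in NM than in OM and was the only called member that was brightest in OM on the scaled signals. NTN4, described below, was nearly as bright in OM as in NM, at 3112 and 3134 a.u. The last EphB member, EPHB6, whose kinase domain lacks activity, stayed between 25.3 and 39.8 a.u. and was not well above background in NM.

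Of the ephrins, the ligands of these receptors, EFNA1, EFNA4 and EFNB1 were 2-fold apart, each in 1 comparison. EFNA1, an A-class ephrin attached to the membrane by a lipid anchor, read 5430 a.u. in OM, 3362 a.u. in MB and 8778 a.u. in NM. It was 2.61-fold lower in MB than in NM, the reverse of the order of EPHA4, and its second probe was 2.29-fold lower. EFNA4 read 702 a.u. in OM, 1087 a.u. in MB and 402 a.u. in NM, so that MB exceeded NM by 2.70-fold. EFNB1, a transmembrane ephrin, read 1540 a.u. in OM, 1644 a.u. in MB and 3199 a.u. in NM. NM stood apart from the other two, at 2.08-fold above OM, and at 1.82-fold, under the threshold, at the lowest among the alternatives. EFNB2, the main partner of EPHB4 in the vessel wall, was not 2-fold apart in any comparison by the probe used, with 3149 a.u. in OM, 2954 a.u. in MB and 2150 a.u. in NM. Its second probe, at 185, 201 and 95.4 a.u., was 2.11-fold higher in MB than in NM. The probe used for EFNB3 read 728, 659 and 577 a.u. in the same order, while its second probe was brightest in MB, at 467, 795 and 532 a.u. EFNA3 and EFNA5 did not reach 100 a.u. on any array.

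**Figure D3:**
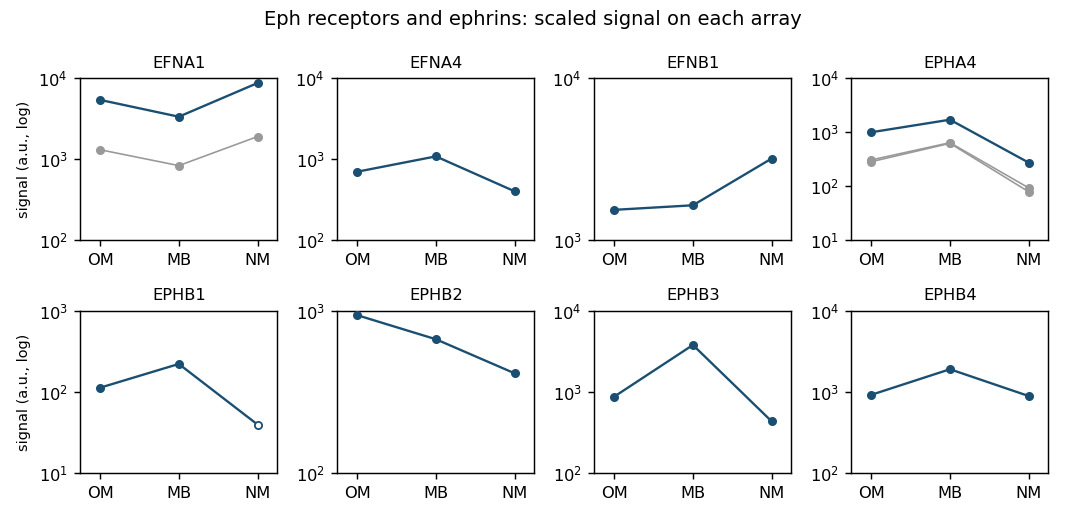
Scaled signal (a.u., log axis) on the OM, MB and NM arrays for the Eph receptors and ephrins that were 2-fold apart in at least 1 comparison; each line is 1 probe, dark for the probe used, grey for others of the gene, and open points are not well above background. EPHA4, EPHB1, EPHB3, EPHB4 and EFNA4 peak in MB and are lowest in NM, while EFNA1 is lowest in MB and EFNB1 highest in NM. For EPHB4 the signal in NM is only 1.03-fold below that in OM.

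Among the secreted class 3 semaphorins, SEMA3B, known as a tumour suppressor of chromosome arm 3p, had its highest signal in MB. It read 25625 a.u. in OM, 115157 a.u. in MB and 31984 a.u. in NM, and no spot was saturated. The MB signal exceeded that of OM by 4.49-fold and that of NM by 3.60-fold, and the second SEMA3B probe gave 4.21-fold and 3.74-fold. SEMA3C, which guides neural crest cells in the heart, read 935 a.u. in OM, 2001 a.u. in MB and 1543 a.u. in NM. MB exceeded OM by 2.14-fold, and NM lay between them. SEMA3A, the collapsin that NRP1 binds, stayed under the signal minimum, with 24.0 a.u. in OM, 95.1 a.u. in MB and a value not well above background in NM. SEMA3F, whose main neuropilin is NRP2, was well above background in NM only, at 47.6 a.u.

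The membrane-bound semaphorins differed among themselves in their order. Of the 11 members of classes 4 to 7 above the minimum, 3 were 2-fold higher in MB than in OM and none was lower, where 6.76% and 4.23% of all genes were. SEMA5A, which carries thrombospondin repeats, read 136 a.u. in OM, 615 a.u. in MB and 183 a.u. in NM. MB stood above both monolayers, by 4.53-fold over OM and 3.36-fold over NM. SEMA6A, a transmembrane ligand of A-type plexins, read 105 a.u. in OM, 289 a.u. in MB and 67.5 a.u. in NM. MB exceeded OM by 2.75-fold and NM by 4.27-fold, and its 2 other probes were dim but higher in MB too. The ratio to NM was 2.45-fold with normexp background correction. SEMA6D read 842 a.u. in OM, 1685 a.u. in MB and 1908 a.u. in NM. MB and NM both lay above OM, NM by 2.26-fold and MB by 2.00-fold; the latter is at the threshold and was below it under 9 of 12 alternative settings.

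SEMA4D, a ligand of PLXNB1, read 150 a.u. in OM, 286 a.u. in MB and 124 a.u. in NM. MB exceeded NM by 2.30-fold and OM by 1.91-fold. The ratio of SEMA4D to NM fell under 2-fold in 3 alternative settings, to 1.69-fold at the lowest. SEMA4A, best known from immune cells and the retina, was 2.19-fold lower in MB than in NM, with 307 a.u. in OM, 209 a.u. in MB and 459 a.u. in NM. That fold was 1.90 at the lowest among the alternatives, under the threshold. SEMA4C was bright on every array, from 42010 a.u. in OM to 63830 a.u. in NM, and was not 2-fold apart. SEMA7A, held on the membrane by a lipid anchor, stayed between 48.3 and 74.9 a.u., and its receptor PLXNC1 between 46.9 and 57.3 a.u.

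Of the plexins, the receptors of semaphorins, PLXNA2, PLXNB3 and PLXND1 were brightest in MB and 2-fold apart, and the others were not. PLXNA2 read 551 a.u. in OM, 1222 a.u. in MB and 246 a.u. in NM. The 3 populations were apart from each other, MB 2.22-fold above OM and 4.97-fold above NM, and NM 2.24-fold below OM. Its second probe was well above background in MB only, at 209 a.u., and 1 other spot within 2 positions of it was likewise bright on that array alone. PLXNB3 read 165 a.u. in OM, 422 a.u. in MB and 146 a.u. in NM. MB exceeded OM by 2.56-fold and NM by 2.89-fold. PLXND1, a plexin of blood vessels, read 1886 a.u. in OM, 3667 a.u. in MB and 1437 a.u. in NM, 2.55-fold higher in MB than in NM and 1.94-fold higher than in OM, where its second probe passed 2-fold. PLXNA1, PLXNA3, PLXNB1 and PLXNB2 were not 2-fold apart in any comparison, and PLXNB1 read 1318 a.u. in OM, 1107 a.u. in MB and 1442 a.u. in NM.

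Of the neuropilins, which bind class 3 semaphorins and VEGF, NRP1 was 2-fold apart by the probe used. It read 11946 a.u. in OM, 5570 a.u. in MB and 22418 a.u. in NM from its brightest probe. By that probe it was 2.14-fold lower in MB than in OM and 4.02-fold lower than in NM, with NM 1.88-fold above OM. The NRP1 probes differed on NM. The brightest spans an intron and lies at hg17 chr10:33536628-33542356, while a probe nearer the 3′ end read 6712 a.u. in OM, 3518 a.u. in MB and 5505 a.u. in NM, and another read 463, 283 and 458 a.u. All 3 put MB lowest, but the other two put MB only 1.57-fold and 1.62-fold below NM, and showed no higher signal in NM than in OM. The fourth probe was not well above background. NRP2 read 7515 a.u. in OM, 6869 a.u. in MB and 12712 a.u. in NM, and MB was 1.85-fold below NM. All 4 NRP2 probes were brightest in NM, the dimmest of them 2.58-fold above OM and 2.06-fold above MB, but MB and OM differed by at most 1.25-fold and in either direction.

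**Figure D4:**
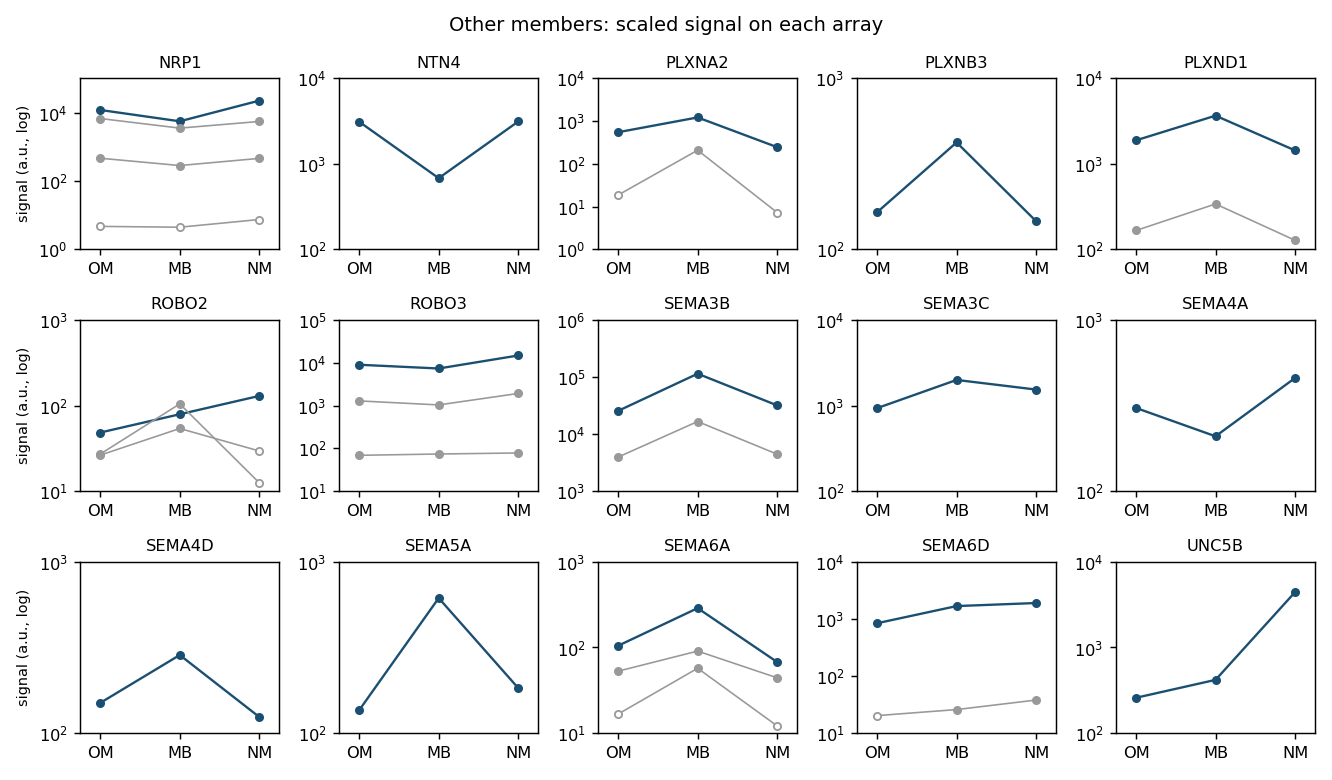
Scaled signal (a.u., log axis) on the OM, MB and NM arrays for the semaphorins, plexins, NRP1, NTN4, ROBO2, ROBO3 and UNC5B; each line is 1 probe, dark for the probe used, grey for others of the gene, and open points are not well above background. NTN4 dips to 680 a.u. in MB and UNC5B climbs to 4445 a.u. in NM, while the probes of NRP1 and of ROBO2 differ among themselves in their order.

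The netrin system held the largest difference of all members. UNC5B, a netrin receptor that can trigger cell death when it lacks ligand, read 258 a.u. in OM, 418 a.u. in MB and 4445 a.u. in NM (1 probe, hg17 chr10:72729603-72729662). OM and MB lay within 2-fold of each other, and NM was 17.2-fold above OM and 10.6-fold above MB. NTN4, a netrin of basement membranes that binds laminin, read 3112 a.u. in OM, 680 a.u. in MB and 3134 a.u. in NM. The monolayers gave almost the same signal, and MB was 4.57-fold below OM and 4.61-fold below NM. NTN1, the ligand of UNC5B, read 8083 a.u. in OM, 7835 a.u. in MB and 14392 a.u. in NM, 1.78-fold higher in NM than in OM. Its second probe was brightest in MB instead, at 107, 187 and 149 a.u. in the same order. UNC5A read 183 a.u. in OM, 184 a.u. in MB and 260 a.u. in NM, and UNC5C stayed between 41.4 and 52.4 a.u.

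SLITs and their ROBO receptors were mostly within 2-fold. No SLIT was 2-fold apart in any comparison. SLIT2 read 210 a.u. in OM, 250 a.u. in MB and 262 a.u. in NM, and its receptor ROBO1 read 989, 1284 and 1632 a.u. ROBO3, which lets commissural axons cross the midline, read 9073 a.u. in OM, 7420 a.u. in MB and 14964 a.u. in NM. It was 2.02-fold lower in MB than in NM, and its other probes were 1.86-fold and 1.06-fold lower. Among the alternatives the lowest fold of ROBO3 was 1.58, under the threshold. ROBO2 was dim, at 48.5 a.u. in OM, 79.4 a.u. in MB and 130 a.u. in NM, which is 2.68-fold higher in NM than in OM, and 1.74-fold, under the threshold, at the lowest among the alternatives. Its other probes did not share that order, since both were brightest in MB, at 105 and 54.1 a.u., and not well above background in NM. ROBO4, an endothelial receptor, read 324 a.u. in OM, 506 a.u. in MB and 295 a.u. in NM.

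For genes read by several probes, the calls could be set against the other probes. In MB against OM, all 7 other probes with a ratio, from 5 called genes, gave the same direction as the probe used. In MB against NM it was 12 of 12 probes from 8 genes, and in NM against OM 3 of 3 probes from 2 genes. ROBO2 and PLXNA2, also called in NM against OM, are not in that last count. The 2 other probes of ROBO2 and the 1 other probe of PLXNA2 were not well above background in NM and gave no ratio. The ROBO2 probes were well above background in OM, at 27.1 and 26.3 a.u., but under the NM floor of 33.2 a.u. No second probe therefore stands beside these calls in NM against OM. The PLXNA2 probe with a bright spot near it is counted in MB against OM and in MB against NM. The same count over all genes was not made, so no background stands beside these numbers. The remaining 13 called members, EFNA4, EFNB1, EPHB1, EPHB2, EPHB3, EPHB4, NTN4, PLXNB3, SEMA3C, SEMA4A, SEMA4D, SEMA5A and UNC5B, each rest on 1 probe.

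Partners and effectors of these receptors outside the rule were followed as a list of 57 genes, all on the array. Of 47 above the minimum, 3 were 2-fold higher in MB than in OM and 1 was lower, and in MB against NM 7 were higher and 2 lower, beside the 6.76%, 4.23%, 13.7% and 10.4% of all genes given above. KALRN, which couples Eph receptors to the actin cytoskeleton in dendritic spines, read 519 a.u. in OM, 2906 a.u. in MB and 456 a.u. in NM. It was the only gene of that list 5-fold apart, 5.60-fold above OM and 6.38-fold above NM. ARHGEF11, which acts downstream of B-type plexins, was 2.18-fold higher in MB than in OM, and VAV3, an exchange factor downstream of Eph receptors, 2.60-fold. SRGAP1, a GTPase-activating protein that binds ROBO, was 2.33-fold lower in MB than in OM. In NM against OM, RGMB, NRCAM, MICAL2 and ABL1 were higher and PAK3 and VASP lower, 4 and 2 out of 46 genes, beside 4.37% and 5.99% of all genes. DCC, the attractive netrin receptor, was on no array well above background.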

How the data were processed

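Total RNA was amplified, labelled with Cy3 and hybridised to Agilent arrays, 1 per population, on 1 slide. Per the file headers, the authors deposited the intensity of each spot from Feature Extraction 9.5.3.1, in linear arbitrary units; the values show a fitted background surface subtracted, division by a multiplicative surface, and a surrogate for low values. The deposited value table holds the same signals (130128 of 130128 within 0.1 percent). No scaling between arrays had been applied.

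Control spots and outlier spots were left out, spots of a probe were averaged, and arrays were scaled to the mean of GAPDH, ACTB and HSP90AA1. The probe with the highest mean signal stood for a gene. Named genes are members past 2-fold in any comparison and pairs such as EFNB2 and EPHB4; fold thresholds were 2 and 5, with a 100 a.u. minimum. The members and lists were chosen with earlier results of these data known. Of the members, 62 were matched to current names by accession and 2 by symbol. Probe coordinates are those of the files (hg17); gene structure at them is not analysed here. The calling steps were run on simulated data, with changes put only into bright single-probe genes. Changes in dim signals, lower bounds and variation between cultures were not simulated. Alternatives were other scalings (75th percentile, quantile, spike-in, none, geometric mean), normexp with offset 50 (limma 3.58.1, R 4.3.3), no background subtraction, other dim filters, all probes of a gene, outliers kept and the value table. The number of arrays limits the precision. Computations used Python 3.11.15, numpy 2.4.6 and pandas 2.3.3.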

Additional observations from a re-analysis of the deposited data

How the results depend on the processing

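No paired analysis was possible because each population has 1 array, and no array could be left out. The choice of scaling moved the median log2 ratio of all genes in MB against OM from 0.09 to -0.18 with spike-in scaling and to -0.09 with the 75th percentile, and in NM against OM from 0.08 to -0.11 with no scaling. The 9 members 2-fold higher in MB than in OM became 5 with 75th percentile scaling, 5 with quantile normalization and 5 with spike-in scaling, EPHB4, PLXNA2, SEMA3C and SEMA6D being those lost. The 2 members lower in MB than in OM became 1 with the mean over all probes of a gene, since NRP1 came to 1.88-fold. The count of members 5-fold apart in MB against OM went from 0 to 1 with 75th percentile scaling, 2 with quantile normalization and 1 with spike-in scaling. Of all genes, 1.72% were 5-fold apart before, and 1.60%, 1.68% and 1.60% under these scalings. In NM against OM, the 4 members higher became 2 with no scaling, and the 5 lower became 2 with normexp background correction and 2 with no background subtraction. In MB against NM, the 6 members lower in MB became 4 with no scaling and 9 with spike-in scaling. The other counts moved by at most 1.5 times under every alternative run. No ratio of a named member changed sign while called, which a call of at least 2-fold made likely beforehand. Ratios of named members that were not called did change sign. In MB over OM, the log2 ratio of EFNB1 went from 0.09 to -0.18 with spike-in scaling. With the mean over all probes of a gene, EFNB2 went from -0.09 to 0.01, NRP2 from -0.13 to 0.07 and NTN1 from -0.04 to 0.38. In MB against NM, EPHA4 was at least 5.04-fold apart under every alternative, EPHB3 ranged from 7.64-fold to 9.81-fold and UNC5B from 9.31-fold to 11.8-fold, while EPHB1 rests on a bound in NM, came to 2.47-fold with normexp background correction and dropped out where both arrays had to be well above background.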
